A study of Mus musculus with 24 samples.

Results

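Fibronectin and 7 matricellular glycoproteins were followed in RNA from mouse aortas: Fn1, Sparc, Sparcl1, Postn, Thbs1, Thbs2, Tnc and Spp1. They were chosen by gene symbol, as 8 of the 41128 genes in the table of read counts, with earlier results of these data known. The study set aortas of Ppp3cb knockout (KO) mice beside those of wildtype (WT) mice, with and without angiotensin II (AngII), a peptide that constricts vessels and raises blood pressure. Ppp3cb codes for a catalytic chain of calcineurin, the calcium-activated phosphatase that sends NFAT transcription factors into the nucleus. The 24 libraries came from KO mice given AngII, KO controls, WT mice given AngII and WT controls, with 3 males and 3 females in each. The mice were aged 5 months, and treated mice had received 500 ng AngII per kg bodyweight each minute from an osmotic minipump over 4 weeks. The KO allele came with the strain B6,129S6-Ppp3cbtm1Jmk/J, and the labels do not say which part of Ppp3cb it removes. The labels do not give the origin of the WT mice or say whether controls carried a pump.

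Matricellular proteins are secreted into the matrix around cells but do not build its main fibres. They bind collagens, growth factors and integrins, and so set how firmly a cell holds to its surroundings and how it reads them. Fibronectin, encoded by Fn1, is the adhesive fibril-forming protein on which many of them and the collagens assemble. In an artery they are made mostly by smooth muscle cells and adventitial fibroblasts, and many of them at higher levels after injury, stretch or raised pressure.

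Library totals were 1523328 to 6352365 counts (median 3835993), and the 8 genes together held 0.265% to 1.95% of a library. Smooth muscle markers were the cell type list with the highest summed level: 11 of 13 were detected, with summed levels of 9358 to 26830 CPM (a gene's share of the library's counts, scaled by TMM factors) across the 24 libraries. The 2 others, Tagln and Cnn1, were listed at 0 in every library. So was each of the 6021 genes located on chromosomes 9, X, Y or MT, which were not analysed here. Further genes of the marker lists, among them Cdh5, Acta1 and Dpep1, were also listed at 0 in all 24 libraries and were not analysed. Ppp3cb averaged 21.5 ± 5.18 CPM in KO mice given AngII and 20.9 ± 7.38 CPM in KO controls, against 41.96 ± 13.7 CPM in WT mice given AngII and 41.5 ± 8.21 CPM in WT controls (SD, n = 6 each). The KO libraries thus held reads of the gene, and 1 KO AngII library (30.2 CPM) and 1 KO control library (28.7 CPM) lay within the WT control range (27.96 to 49.3 CPM). The 3 KO control female libraries stood apart, with totals of 1523328 to 2401264 and 1000.7 to 1991.6 CPM of protein-coding counts on olfactory and vomeronasal receptor genes, against 109.9 to 1072.8 CPM in the other 21. Results that rest on them are given with and without them where the call changes. Each library came from 1 mouse, so p-values measure the spread between these mice.

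In WT aortas the RNA of fibronectin, Sparc, periostin and tenascin-C rose with AngII. These 4 of the 8 genes passed an adjusted p of 0.05 (edgeR quasi-likelihood test over 16316 genes), where 0.184% of all genes passed in that direction and 0.208% in either. Fn1, Sparc and Postn stood at 2.696 to 2.77 times their WT control level and Tnc at 1.93 times. Thbs1 stood at 2.699 times but did not pass (adjusted p = 0.285). All 8 log2 changes lay above 0 (48.7% of all genes did), with a median of 1.43 against -0.01 over all genes, and all 8 had an unadjusted p under 0.05 (6.71% of all genes). In KO aortas all 8 changes were again above 0 (51.4% of all genes), with a median of 0.69 against 0.01 over all genes, but none passed, nor did any of the 16316 genes (0%). With the 3 KO control females left out, 5 of the 8 KO changes lay above 0. Their median was then 0.42 against -0.01 over all genes, and 0 of 14957 genes passed. Of the 8 genes, Fn1, Sparc, Postn and Tnc had an unadjusted p under 0.05 in KO mice (7.71% of all genes). DESeq2 called 2 of them there, Sparc and Postn (17 of all 16316 genes), and limma-voom 0 (0 of all 16316 genes). DESeq2 was not run without the 3 KO control females. Taken over both genotypes, 12 AngII libraries against 12 controls, the same 4 genes as in WT mice passed (0.496% of all genes passed as higher, 0.656% in either direction). Without the 3 KO control females, 0 of the 8 genes passed over both genotypes by edgeR, with Sparc at 0.93 and Postn at 0.98 (adjusted p = 0.0743 for both), nor did any of 14957 genes, while Fn1, Sparc, Postn and Tnc still passed in WT mice.

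**Figure D1:**
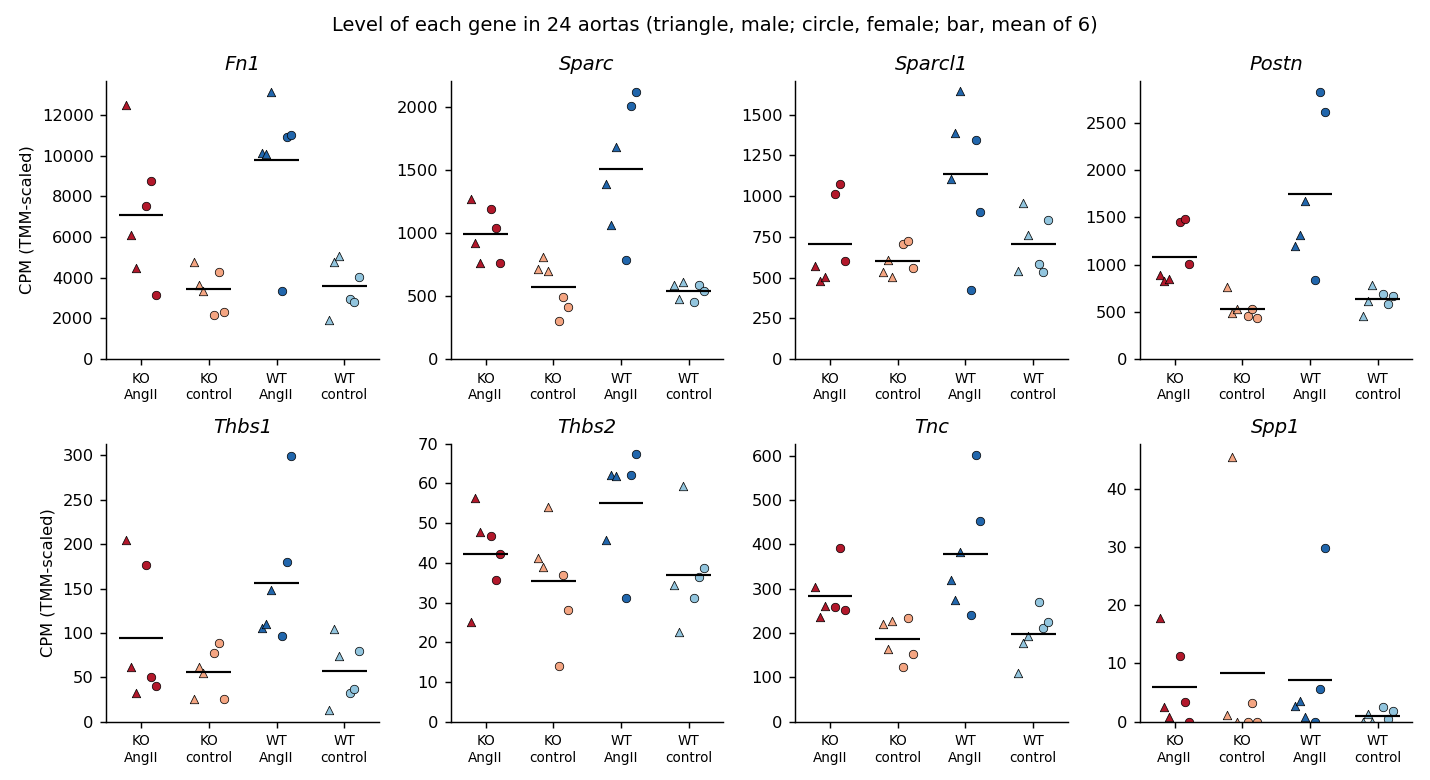
Level of each of the 8 genes in the 24 aortas, in CPM scaled by TMM factors, on axes that start at 0. Each point is 1 mouse (triangle, male; circle, female), grouped from left to right as KO AngII, KO control, WT AngII and WT control, and each bar is the mean of 6. For Postn the lowest AngII library (823 CPM) lies above the highest control (783 CPM).

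Fibronectin is the adhesive scaffold of the group, bound by the integrin of the Itga5 and Itgb1 chains. Fn1 (ENSMUSG00000026193, chr1:71585520-71653200 of mm10, minus strand) had the most reads of the 8 genes, 525822 over all libraries, and its mean CPM ranked 2 among 22026 protein-coding genes in AngII aortas of both genotypes, 7 in KO controls and 6 in WT controls. In KO mice it lay between 3171 and 12500.3 CPM under AngII (median 6820) and between 2150 and 4770.05 CPM in controls (median 3492). In WT mice it lay between 3334 and 13121 CPM under AngII (median 10531) and between 1943 and 5089 CPM in controls (median 3498). The groups overlapped in both genotypes, in WT mice through 1 AngII female at 3334 CPM, while the other 5 WT AngII aortas held at least 10079 CPM. The log2 change with AngII was 1.06 ± 0.31 in KO mice (SE, adjusted p = 0.315) and 1.43 ± 0.31 in WT mice (adjusted p = 0.041). Over both genotypes Fn1 rose by 1.25 ± 0.22 (adjusted p = 0.0027). Fn1 took 0.641% of all counts in KO AngII and 0.363% in KO control libraries, against 0.927% in WT AngII and 0.386% in WT control libraries.

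Sparc and its relative Sparcl1 encode collagen-binding glycoproteins, and SPARC takes part in the handling of newly secreted collagen. Sparc (ENSMUSG00000018593, chr11:55394500-55423183, minus strand) rose by 1.47 ± 0.22 in WT mice (adjusted p = 0.0022). Its level in WT AngII aortas was 788 to 2115 CPM (median 1537), all above the 451 to 612 CPM of WT controls (median 564). In all, 0.38% of genes had WT AngII libraries wholly above the WT controls. KO aortas held 759 to 1269 CPM under AngII (median 979.8) and 303 to 812 CPM in controls (median 594), which overlapped, and the change of 0.86 ± 0.21 did not pass (adjusted p = 0.241). Within the KO controls the 3 females lay at 303, 413 and 490.4 CPM and the 3 males at 698, 716 and 812 CPM. They did not overlap, and 13.5% of all genes tested had KO control males wholly above KO control females. The KO change in Sparc was 0.41 ± 0.30 in males and 1.31 ± 0.31 in females (adjusted p = 1 and 0.0884). The female value rests on the 3 libraries that stood apart, and their part in it was not tested.

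The 250 bases before the RefSeq start of Sparc (GRCm38.p6, chr11:55420081-55420330, minus strand, start at 55420080) are shown with those of Postn and Tnc because these 3 of the genes that rose have an entry in the promoter table. Each was searched on both strands for the TATA element TATAA, the NFAT core GGAAA, the AP-1 site TGANTCA, the TEAD site GGAATG and the CArG box of SRF, and capitals mark the matches to TATAA and GGAAA. The Sparc window held none of the 5.
Sparc: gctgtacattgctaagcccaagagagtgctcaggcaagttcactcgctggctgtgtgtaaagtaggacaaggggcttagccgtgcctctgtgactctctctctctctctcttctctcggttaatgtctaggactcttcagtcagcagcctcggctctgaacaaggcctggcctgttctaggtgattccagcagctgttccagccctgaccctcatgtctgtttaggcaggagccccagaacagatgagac
Postn: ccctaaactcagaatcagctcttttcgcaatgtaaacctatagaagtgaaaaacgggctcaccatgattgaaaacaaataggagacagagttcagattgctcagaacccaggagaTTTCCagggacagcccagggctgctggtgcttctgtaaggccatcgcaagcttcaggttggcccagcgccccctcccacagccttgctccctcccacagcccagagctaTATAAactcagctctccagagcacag
Tnc: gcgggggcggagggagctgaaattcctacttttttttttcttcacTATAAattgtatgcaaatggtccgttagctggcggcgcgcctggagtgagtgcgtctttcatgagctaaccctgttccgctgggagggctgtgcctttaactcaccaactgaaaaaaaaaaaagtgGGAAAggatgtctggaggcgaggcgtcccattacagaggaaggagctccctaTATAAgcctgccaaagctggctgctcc
The Postn window (chr3:54360857-54361106, plus strand, start at 54361107) held TATAA from 26 to 22 bases before the start and GGAAA on the other strand, read here as TTTCC, from 135 to 131 bases before it. The Tnc window (chr4:64046937-64047186, minus strand, start at 64046936) held TATAA at 205 to 201 and at 27 to 23 bases before the start, and GGAAA at 79 to 75. Of 32851 promoter windows of the same length, 22.8% held TATAA and 55.6% held GGAAA on either strand, while 6.7% held the AP-1 site, 12.6% the TEAD site and 1.5% the CArG box. TATAA on the coding strand beginning 20 to 40 bases before the start, as in these windows of Postn and Tnc, occurred in 3.52% of windows. That share is per window and makes no allowance for the choice among the starts of a gene. Postn and Tnc each have a further start in the table. The window of the other Postn start held none of the 5 motifs, and that of the other Tnc start held TATAA at 126 to 122 bases before it and none of the other 4. Spp1 and Thbs2 also have entries, and Fn1, Sparcl1 and Thbs1 do not.

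Sparcl1 (ENSMUSG00000029309, chr5:104079111-104113733, minus strand) encodes the SPARC relative that is also known for its anti-adhesive action. It did not pass in either genotype, with 0.18 ± 0.22 in KO mice and 0.66 ± 0.22 in WT mice (adjusted p = 0.909 and 0.404). Its level was 480 to 1072 CPM in KO AngII and 501 to 722 CPM in KO control aortas, against 422 to 1645 CPM in WT AngII and 536 to 959.6 CPM in WT control aortas, and AngII and control overlapped in both genotypes. By sex, KO males under AngII lay at 480, 504 and 569 CPM, against 1106, 1387 and 1645 CPM in WT males under AngII. They did not overlap, and 6.48% of all genes tested had KO AngII males wholly below WT AngII males. KO females under AngII lay at 603, 1015 and 1072 CPM, against 422, 902 and 1346 CPM in WT females under AngII, and these overlapped. In males the KO minus WT difference under AngII was -1.41 ± 0.32, which did not pass over all genes (adjusted p = 0.149, where 0.0245% of genes passed), and in females it was 0.01 ± 0.31. The difference between these 2 values was not tested.

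Periostin, encoded by Postn, binds collagen and integrins and is secreted by activated fibroblasts and smooth muscle cells in injured arteries, valves and heart. Postn (ENSMUSG00000027750, chr3:54361109-54391037, plus strand) held 892, 823 and 848 CPM in KO AngII males and 1453, 1488 and 1005 CPM in KO AngII females, against 768, 487 and 525 CPM in KO control males and 461, 525 and 437 CPM in KO control females. In WT mice it held 1199, 1315 and 1677 CPM in AngII males and 837, 2826 and 2621 CPM in AngII females, against 454, 614 and 783 CPM in control males and 689, 585 and 672 CPM in control females. All 12 AngII aortas lay above all 12 controls, and Postn was the 1 gene of the 16316 tested for which this held (0.00613%). It held also with RLE factors and per protein-coding total, but for no gene when counts were divided by the library total without scaling factors. The AngII change was 1.00 ± 0.22 in KO mice (adjusted p = 0.165) and 1.44 ± 0.23 in WT mice (adjusted p = 0.00236). Over both genotypes it rose by 1.22 ± 0.16 (adjusted p = 0.000103). KO AngII libraries lay wholly above KO controls for 0.116% of all genes, and among the 8 for Postn and Tnc.

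Tenascin-C, encoded by Tnc, is a large hexameric glycoprotein that loosens cell adhesion and appears in remodelling vessel walls. Tnc (ENSMUSG00000028364, chr4:63959785-64047015, minus strand) held 237 to 393 CPM in KO AngII aortas (median 259), all above the 124 to 234 CPM of KO controls (median 191). WT AngII aortas held 242 to 603 CPM (median 352) and overlapped the 111 to 269 CPM of WT controls (median 203). The groups thus separated in the genotype with the smaller mean difference. The AngII change was 0.61 ± 0.21 in KO mice (adjusted p = 0.445) and 0.95 ± 0.21 in WT mice (adjusted p = 0.041), and over both genotypes Tnc rose by 0.78 ± 0.15 (adjusted p = 0.00479). The WT calls of Fn1 and Tnc lay just under the threshold: leaving out each library in turn, Fn1 was called in 15 of 24 fits (adjusted p 0.00198 to 0.148) and Tnc in 11 (0.00226 to 0.276), whereas Sparc and Postn were called in all 24 (0.0168 at the highest for each). The Fn1 call was lost without any of WT control females 1, 2 and 3, WT control males 1 and 2, WT AngII females 2 and 3 and WT AngII males 2 and 3. The Tnc call was lost without any of these 9 libraries, and without WT control male 3, WT AngII male 1 or KO AngII males 2 or 3. In these 24 fits the change stayed between 1.27 and 1.63 for Fn1 and between 0.78 and 1.10 for Tnc.

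**Figure D2:**
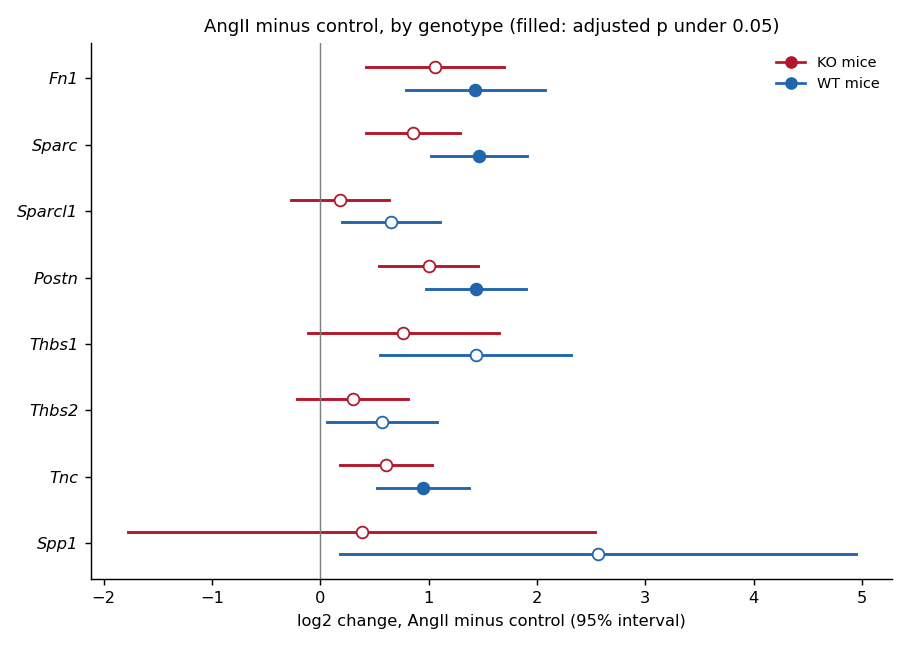
The log2 change of each gene, AngII minus control, in KO mice (red) and WT mice (blue), with its 95% interval from the edgeR fit on the x axis and genes down the page. Filled points passed an adjusted p of 0.05: Fn1, Sparc, Postn and Tnc in WT mice and none in KO mice, and every KO point lies left of its WT point.

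The thrombospondins encoded by Thbs1 and Thbs2 are calcium-binding glycoproteins that bind the receptors Cd36 and Cd47 and hold back new vessels. Thrombospondin-1, encoded by Thbs1, is also known as an activator of latent TGF-beta. Thbs1 (ENSMUSG00000040152, chr2:118111876-118127133, plus strand) changed as much as Fn1 in WT mice but with a wider error, 1.43 ± 0.43 (adjusted p = 0.285), and by 0.77 ± 0.43 in KO mice (adjusted p = 0.691). KO AngII aortas held 32.2 to 205 CPM (median 55.9) and KO controls 25.3 to 89.1 CPM (median 58.1). WT AngII aortas held 96.3 to 299 CPM (median 129) and WT controls 12.95 to 105 CPM (median 55.3). In KO mice 1 male at 205 CPM and 1 female at 176 CPM under AngII stood far above the other 4 at 32.2 to 61.2 CPM, and the KO change was 0.23 without that male and 0.30 without that female. Thbs1 did not pass over both genotypes (1.10 ± 0.30, adjusted p = 0.0968), and passed without WT AngII female 1, WT control male 2, KO control female 2, KO AngII female 3 or KO AngII male 3 (adjusted p 0.0366 to 0.0494). It was also called over both genotypes by limma-voom (adjusted p = 0.0368), without the filter and with the share of receptor genes as a covariate, and in WT mice by limma-voom (adjusted p = 0.00224) and without the filter. With that covariate Tnc was not called over both genotypes. Thbs2 (ENSMUSG00000023885, chr17:14665500-14694235, minus strand), which encodes a secreted thrombospondin known for its part in collagen fibril assembly, changed by 0.30 ± 0.25 in KO mice and 0.57 ± 0.25 in WT mice (adjusted p = 0.829 and 0.663). Its level was 42.4 ± 10.8 CPM in KO AngII and 35.5 ± 13.5 CPM in KO control aortas, against 55.1 ± 13.8 CPM in WT AngII and 37.1 ± 12.3 CPM in WT control aortas (SD, n = 6 each), and the groups overlapped in both genotypes.

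Osteopontin, encoded by Spp1 (ENSMUSG00000029304, chr5:104435118-104441050, plus strand), is an acidic integrin-binding phosphoprotein made in bone and by activated macrophages. It was close to the limit of detection, with 524 counts in all and 0 counts in 7 of 24 libraries, where 3 counts would be 0.695 to 1.90 CPM. KO AngII aortas held 0 to 17.9 CPM (median 2.89) and KO controls 0 to 45.4 CPM (median 0.607), against 0 to 29.9 CPM in WT AngII (median 3.15) and 0 to 2.56 CPM in WT control aortas (median 0.92). Single mice carried these groups: 1 KO control male held 45.4 CPM, where the next KO control held 3.22 CPM, and 1 WT AngII female held 29.9 CPM, where the next WT AngII aorta held 5.56 CPM. Macrophage markers (17 of 18 tested) summed to 761 CPM in that KO control male, the highest of the 24 libraries, against 109 to 323 CPM in the other KO controls, and to 255 CPM in that WT AngII female, within the 184 to 288 CPM of its group. Their part in the Spp1 values was not tested. The AngII change was 0.38 ± 1.06 in KO mice and 2.56 ± 1.17 in WT mice (adjusted p = 0.975 and 0.69). Neither passed, though in WT mice Spp1 passed when no filter on low counts was applied (adjusted p = 0.0192), and its biological coefficient of variation was 124%, against 26.0% to 50.7% for the other 7 genes.

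**Figure D3:**
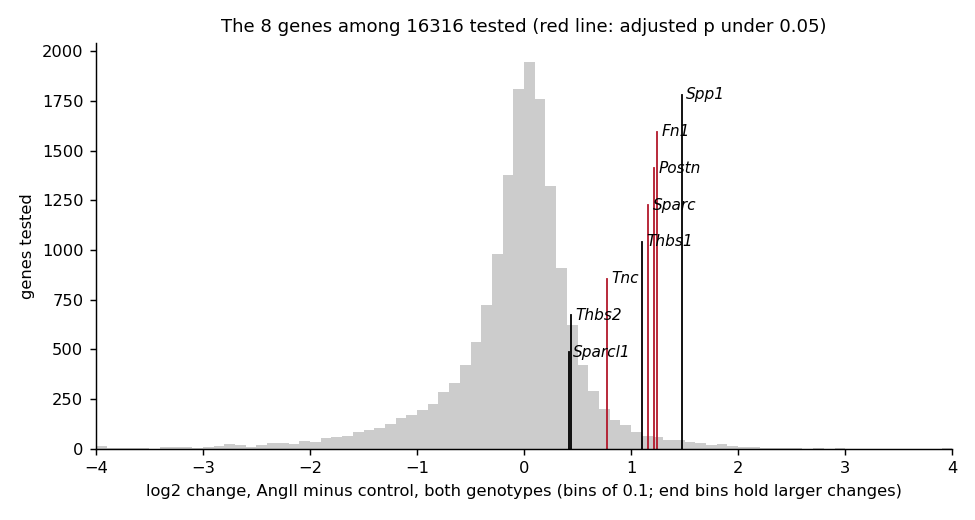
Number of genes (y axis) by log2 change, AngII minus control over both genotypes, in bins of 0.1 (grey), with the 8 genes as lines whose heights serve only to separate the names. Fn1, Postn, Sparc and Tnc (red) passed an adjusted p of 0.05, and 1.72%, 1.84%, 2.1% and 4.66% of the genes tested had a larger rise than each of them.

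Without AngII no difference between the genotypes passed. KO minus WT in controls lay between -0.25 and 0.01 for all but Spp1 (2.31 ± 1.23), the intervals of Fn1, Sparc, Sparcl1, Postn, Thbs2 and Tnc together spanned -0.71 to 0.54, and that of Thbs1 -0.91 to 0.85. None passed with edgeR (0.221% of all genes did), DESeq2 or limma-voom, and none had an unadjusted p under 0.05 (9.72% of all genes). Under AngII, KO aortas lay below WT aortas in 7 of the 8 genes, and 50.9% of all genes lay above 0. The median was -0.53 against 0.01 over all genes. Sparcl1 stood at -0.70 ± 0.22, Postn at -0.69 ± 0.22 and Sparc at -0.60 ± 0.21 (adjusted p = 0.265, 0.277 and 0.382). None of the 8 passed in edgeR (0.355% of all genes did), and these 3 had an unadjusted p under 0.05 (7.75% of all genes). DESeq2 called 0 of them and 152 of all 16316 genes. By contrast, limma-voom with quality weights called all 3 (adjusted p = 0.0191, 0.00963 and 0.0159) and 200 of all 16316 genes. The AngII change in WT mice and KO minus WT under AngII share the 6 WT AngII libraries.

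**Figure D4:**
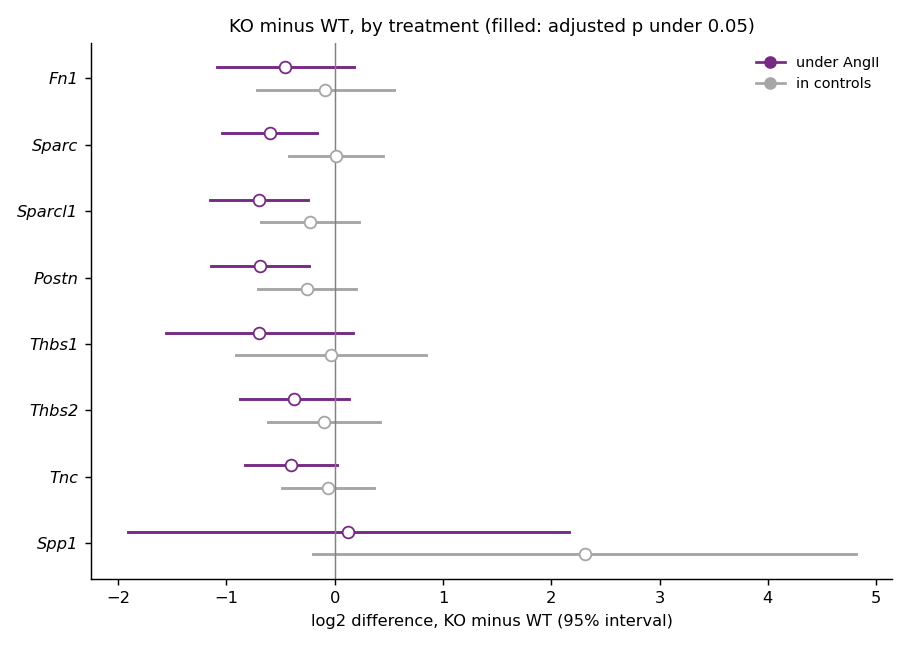
The log2 difference of each gene, KO minus WT, under AngII (purple) and in controls (grey), with its 95% interval from the edgeR fit on the x axis. Under AngII 7 of 8 points lie below 0, from -0.70 for Sparcl1 to -0.37 for Thbs2, and in controls all but Spp1 lie between -0.25 and 0.01, with no point filled because none passed an adjusted p of 0.05.

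Whether the response itself depended on genotype was tested by the interaction, the AngII change in KO mice minus that in WT mice. All 8 values lay below 0 (52.8% of all genes lay above 0), with a median of -0.46 against 0.04 over all genes. None passed with edgeR (0% of all genes), DESeq2 or limma-voom, and none had an unadjusted p under 0.05 (4.02% of all genes). The value for Sparc was -0.61 ± 0.30 (95% interval -1.23 to 0.002), that for Postn -0.44 ± 0.31 (-1.08 to 0.20) and that for Fn1 -0.37 ± 0.44 (-1.26 to 0.52). A call in WT mice and none in KO mice is thus not shown to be a difference between them. The intervals of Sparc, Postn and Fn1 also hold a KO response that is smaller by 1 log2 unit, and that of Tnc (-0.94 to 0.255) ends just short of it.

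The WT AngII group held 1 female (replicate 1) that was the lowest of its 6 libraries for all 8 genes, with 3334 CPM of Fn1, 788 of Sparc and 837 of Postn. Its smooth muscle markers summed to 15630 CPM, against 18550 to 24570 CPM in the other 5, and its fibroblast markers (11 of 13 tested) to 1494 CPM, against 2210 to 2597 CPM. Its endothelial markers summed to 1701 CPM, against 597.6 to 947 CPM in the other 5, and its adipocyte markers to 2456 CPM, against 918 to 2262 CPM. Their part in the member levels was not tested, and in a whole aorta fewer cells of a type and less RNA per cell cannot be told apart. Without this library, Sparcl1 also passed in WT mice (0.83, adjusted p = 0.0456), Postn passed in KO mice (1.01, adjusted p = 0.029), and Sparcl1 and Postn passed as lower in KO than in WT mice under AngII (-0.88 for Sparcl1 and -0.89 for Postn, adjusted p = 0.0408 and 0.0222). Leaving out KO control female 2 instead, Sparc and Postn passed in KO mice (0.97 and 1.07, adjusted p = 0.0415 and 0.031). Both of these KO results still use KO control females, the libraries that stood apart. With only those 3 libraries left out, 0 of the 8 genes passed in KO mice by edgeR, as 0 of 14957 genes did.

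**Figure D5:**
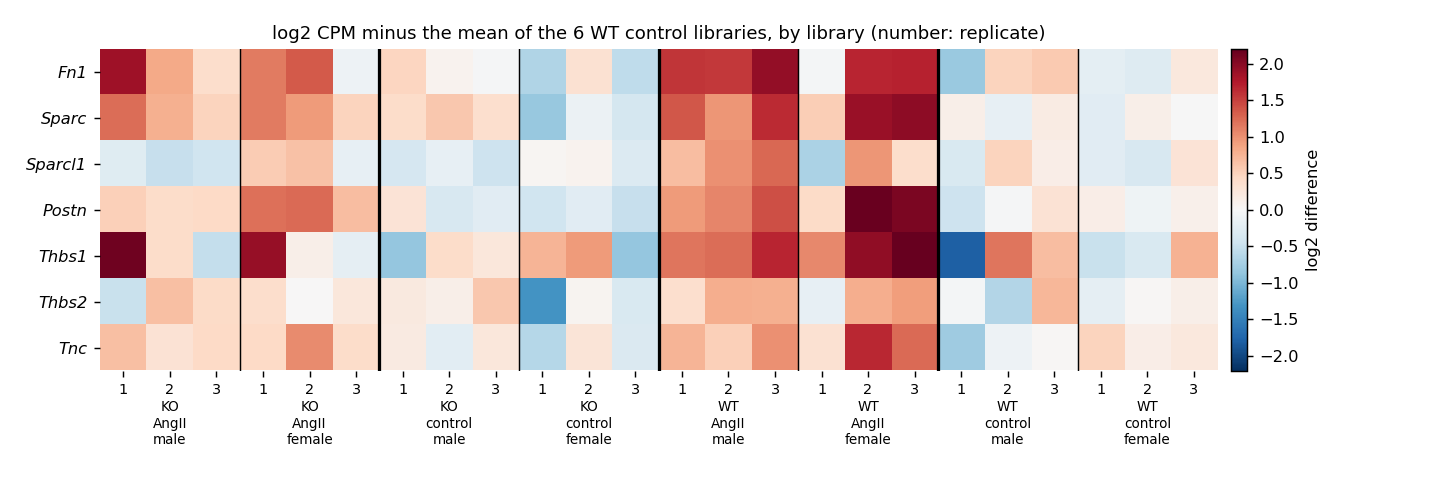
The log2 CPM of 7 genes minus the mean of the 6 WT control libraries (colour), for each of the 24 libraries; Spp1 is left out because of its 0 counts. Columns run by group with the replicate number under each, AngII before control and male before female. WT AngII female replicate 1 is paler or bluer than the other 5 WT AngII columns in each of the 7 genes.

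No marker of smooth muscle, fibroblasts, endothelium or macrophages passed with AngII in either genotype. Fibroblast markers had a median change of 0.08 in KO mice and 0.36 in WT mice, endothelial markers of -0.40 in KO mice and -0.66 in WT mice, and macrophage markers of -0.65 in KO mice and 0.70 in WT mice. Summed fibroblast markers were 1039 to 2664 CPM in KO AngII and 1345 to 2843 CPM in KO control aortas, against 1494 to 2597 CPM in WT AngII and 1318 to 2222 CPM in WT control aortas. Among the other lists, Acan, the cartilage proteoglycan, rose by 2.48 ± 0.42 in WT mice (adjusted p = 0.00647). Neural and Schwann cell markers had a median change of -1.21 in KO mice and -0.61 in WT mice (14 of 15 tested). Over both genotypes Snap25 (-4.51) and Dbh (-3.72) fell and Uchl1 (1.41) rose (edgeR adjusted p = 0.00197, 0.0278 and 0.0356). Without the 3 KO control females none of these passed over both genotypes, as 0 of 14957 genes did. The part of these lists in the member values was not tested.

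No difference between the sexes passed for these genes. For male minus female over all groups the 8 differences lay between -0.24 (Postn, 95% interval -0.56 to 0.08) and 0.33 (Fn1, -0.11 to 0.78), none had an unadjusted p under 0.05 (20.2% of all genes), and edgeR (5.27% of all genes), DESeq2 and limma-voom called 0. The AngII response of males minus that of females was below 0 for all 8 genes with TMM factors (43.1% of all genes lay above 0), and above 0 for 2 of them with RLE factors. It was -0.73 ± 0.31 for Postn and -0.62 ± 0.30 for Sparc, the 2 genes with an unadjusted p under 0.05 (0.027 and 0.0491, with 4.53% of all genes). None passed by edgeR, DESeq2 or limma-voom (0% of all genes in edgeR). With the 3 KO control females left out, this contrast rested on WT mice alone. Then 3 of the 8 values lay above 0, with a median of -0.19 against -0.04 over all genes. With the contrast of each sex taken from the fit of all 24 libraries, no gene of the 16316 passed for AngII in males or in females of either genotype. In WT mice Postn changed by 1.18 ± 0.32 in males and 1.69 ± 0.32 in females, and in KO mice by 0.53 ± 0.31 in males and 1.47 ± 0.32 in females.

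Per kilobase of exon, the order of the levels was nearly the same in every group. In KO AngII aortas it ran Fn1 (607 CPM per kb), Sparc (261), Sparcl1 (241), Postn (125), Tnc (36.6), Thbs1 (15.5), Thbs2 (6.05) and Spp1 (3.62). In WT controls it ran Fn1 (309 CPM per kb), Sparcl1 (240.1), Sparc (143), Postn (72.7), Tnc (25.5), Thbs1 (9.35), Thbs2 (5.29) and Spp1 (0.628). Sparc stood above Sparcl1 in AngII aortas of both genotypes and below it in the controls of both, and the ranges of these neighbours overlapped in all but the WT controls, where Sparcl1 held 182.5 to 327 CPM per kb and Sparc 119 to 162. Fn1 and its next neighbour overlapped in all 4 groups, as did Thbs1 and Thbs2 in all but WT AngII aortas. Postn and Tnc did not overlap in any group.

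Across the 24 libraries, which share the AngII contrast and their scaling, the genes most like each member in log2 CPM were sought among 6915 genes with a mean of at least 10 CPM. Sparc ran closest to the collagen chains Col1a1 (Pearson r = 0.964, Spearman rho = 0.969), Col1a2 (r = 0.952) and Col3a1 (r = 0.934). Postn and Tnc had the same nearest gene, the basement membrane collagen Col15a1 (r = 0.924 and 0.899), and were among each other's first 3 (r = 0.897). Fn1 ran closest to Slit3 (r = 0.911), a secreted guidance protein, then to Mfge8 (r = 0.897), which encodes an integrin-binding milk fat globule protein abundant in the aortic wall, and to Nov (r = 0.888), a matricellular CCN protein. For Thbs1 the first was Grb10 (r = 0.749) and the second Fn1 (r = 0.748). Sparcl1 had Ell2 (r = 0.737), Thbs2 had Mical2 (r = 0.846), and Spp1 had Col8a1 (r = 0.693). Within groups, after subtracting each group's mean, r was 0.811 between Fn1 and Postn, 0.815 between Sparcl1 and Postn and 0.708 between Sparc and Postn, and -0.03 between Thbs1 and Thbs2.

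Relatives of the 8 genes had a median AngII change of 0.11 in KO mice and 0.23 in WT mice. Of 26 listed, 23 were tested and 0 passed with AngII in WT mice. However, DESeq2 called 2 (80 of all 16316 genes) and limma-voom 6 (329 of all 16316 genes), and 9 had an unadjusted p under 0.05 (6.71% of all genes). Over both genotypes 2 rose (0.496% of all genes passed as higher), Fbln5 by 0.78 ± 0.16 (adjusted p = 0.0122), which encodes an elastin-binding fibulin, and Ecm1 by 0.88 ± 0.18 (adjusted p = 0.0138). Without the 3 KO control females neither passed (0.60 and 0.72, adjusted p = 0.359 and 0.236). The other thrombospondins stood at 0.19 (Thbs3), 0.95 (Thbs4) and 1.10 (Comp), the tenascin Tnxb at -0.02, the periostin relative Tgfbi at -0.02 and the SPARC relative Fstl1 at 0.45 over both genotypes, none of them called. In WT mice these 6 had values of 0.19, 2.58, 0.99, -0.15, -0.05 and 0.56 in the same order, and in KO mice 0.19, -0.68, 1.21, 0.11, 0.02 and 0.34.

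Among receptors, 14 of 16 were tested and 2 rose with AngII in WT mice (0.184% of all genes passed as higher). These were Itga5, the alpha chain of the main fibronectin receptor, by 1.32 ± 0.26 (adjusted p = 0.0184), and the heparan sulfate co-receptor Sdc4 by 0.85 ± 0.17 (adjusted p = 0.0233). In KO mice Itga5 stood at 0.90 ± 0.26 and Sdc4 at 0.12 ± 0.17 (adjusted p = 0.297 and 0.932). Itgb1 was listed at 0 throughout and was not analysed here. The osteopontin and hyaluronan receptor Cd44 stood at -0.28 ± 0.37 in KO mice and 0.98 ± 0.37 in WT mice, Itgav at 0.25 and 0.28, the thrombospondin receptor Cd36 at 0.33 and -0.42, and Cd47 at 0.20 and -0.01, in that order of genotypes, and none passed. Over both genotypes, where 0.496% of all genes passed as higher, Itga5 rose by 1.11 ± 0.18 (adjusted p = 0.00159) and Itgb5 by 0.62 ± 0.14 (adjusted p = 0.0253). Neither passed without the 3 KO control females (0.88 and 0.34, adjusted p = 0.185 and 0.796).

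Of 19 enzymes that cut or crosslink matrix proteins, 15 were tested and 1 rose in WT mice (0.184% of all genes passed as higher). This was the lysyl oxidase Lox, by 1.25 ± 0.26 (adjusted p = 0.0303), against 0.43 ± 0.26 in KO mice (adjusted p = 0.728). Lox was also lower in KO than in WT mice under AngII, with a difference of -1.15 ± 0.26 (adjusted p = 0.0373, where 0.355% of all genes passed in either direction). The transglutaminase Tgm2 stood at 0.11 in KO and 0.25 in WT mice, the procollagen proteinase Bmp1 at 0.61 and 0.54, and the membrane protease Mmp14 at -0.48 and 0.07, none called. Over both genotypes, where 0.496% of all genes passed as higher, Lox rose by 0.84 ± 0.19 and the plasminogen activator Plat by 0.88 ± 0.22 (adjusted p = 0.0221 and 0.048). Neither passed without the 3 KO control females (0.53 and 0.50, adjusted p = 0.726 and 0.812).

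Of 15 TGF-beta ligands, receptors and targets, 13 were tested. Ccn2, the connective tissue growth factor, rose in WT mice by 1.36 ± 0.26 (adjusted p = 0.0121, where 0.184% of all genes passed as higher) and stood at 0.77 ± 0.26 in KO mice (adjusted p = 0.411). Ccn2 and the ligand Tgfb3 were lower in KO than in WT mice under AngII, with differences of -1.14 ± 0.26 and -0.79 ± 0.18 (adjusted p = 0.0329 and 0.0367, where 0.355% of all genes passed in either direction). Tgfb1 changed by 0.004 in KO and 0.40 in WT mice, and Tgfb2 by 0.30 and 1.02, none called within a genotype. Over both genotypes Ltbp2 (1.2), Ccn2 (1.07), Ltbp1 (0.68) and Tgfb2 (0.66) rose (0.496% of all genes passed as higher). Without the 3 KO control females these 4 stood at 0.76, 0.77, 0.48 and 0.55 and none passed (adjusted p 0.307 to 0.678). The calls named from these lists in WT mice and for KO minus WT under AngII held without those libraries. With the share of receptor genes as a covariate, 2 of all 16316 genes passed for KO minus WT under AngII, against 58 without it. The genes of these lists were not followed with that covariate. With AngII in KO mice none of the 65 genes tested on these 4 lists passed, 16 had an unadjusted p under 0.05 (7.71% of all genes), and DESeq2 and limma-voom called 0. For the interaction none of the 65 passed with edgeR, DESeq2 or limma-voom, and 7 had an unadjusted p under 0.05 (4.02% of all genes). For KO minus WT in controls edgeR and limma-voom called 0 of the 65, DESeq2 called 1, and 7 had an unadjusted p under 0.05 (9.72% of all genes).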

How the data were processed

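Total RNA of mouse aorta, depleted of ribosomal RNA, was sequenced. The authors deposited raw counts per gene, made per the submitters' processing notes with featureCounts 1.4.6 on the build mm10, and with TopHat2 2.0.14, Bowtie2 2.2.5 and cutadapt 1.8.1. Strandedness is not given in the sources used here, so reads of Fn1, Thbs1 and Tnc cannot be told apart from those of antisense genes that share 292, 208 and 176 exon bases (109, 7 and 334 counts), and Spp1 shares 309 with Gm42793. Coordinates and exon lengths came from GENCODE M21 (40254 identifiers matched), promoters from RefSeq (GRCm38.p6). Genes passing filterByExpr (minimum count 10, minimum total count 15; 16316 genes, all 8 members) were fitted with edgeR 4.0.16 (R 4.3.3, limma 3.58.1, TMM factors, 1 coefficient for each of 8 groups). Contrasts were means over the sexes, with quasi-likelihood F-tests (two-sided) and p-values adjusted by Benjamini-Hochberg over all genes tested. DESeq2 1.42.0 and limma-voom were alternatives. The count test was checked on simulated data. Intervals cover the spread between mice. No library was a copy of another (chi-square per degree of freedom 6.66 to 97.3 within groups). The members, lists and named genes (list genes that were called, and a fixed set of relatives and receptors) were chosen with earlier results of these data known. A gene of the TGF-beta list is not reported here.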

Additional observations from a re-analysis of the deposited data

Results flagged for a closer look

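In 4 of 32 groups of 6 aortas (8 genes, 4 combinations of genotype and treatment) 1 library lay farther from its neighbour than Dixon's 95% limit allows. Chance passes that limit in about 1 group in 20 where values are normally distributed and groups independent. The limit was applied to CPM without a log, and the 32 groups share the same libraries, so their number cannot be set against that rate. Fn1 was lowest in WT AngII female replicate 1, at 3334 CPM, where the next WT AngII library held 10079.3 CPM. Postn was highest among KO controls in male replicate 1, at 767.5 CPM, where the next held 525.1 CPM. Spp1 was highest among WT AngII aortas in female replicate 3, at 29.87 CPM against 5.562 CPM in the next, and among KO controls in male replicate 2, at 45.43 CPM against 3.222 CPM in the next.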

How the results depend on the processing

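With each of the 24 libraries left out in turn, the number of the 8 genes called for AngII was 2 to 5 in WT mice (4 with all libraries), 0 to 2 in KO mice (0) and 4 to 5 over both genotypes (4), and for KO minus WT under AngII 0 to 2 (0). In WT mice limma-voom and the test without a filter each called 6 (329 of all 16316 genes and 134 of all 31774). Over both genotypes they called 6 and 5 (196 of all 16316 genes and 276 of all 31774). In WT mice 2 were called when only the groups compared were fitted (34 of all 13347 genes). With the share of receptor genes as a covariate 2 were called in WT mice (8 of all 16316 genes, against 34 without it). None were called there in females only, in males only or in fits of the 12 female or 12 male libraries alone. These single-sex fits were added after seeing the data. So were all alternatives per gene over both genotypes, the scalings of the Postn separation and the pathway genes without the 3 KO control females. The male fit called 5 of 13658 genes for AngII in WT mice. Over both genotypes 2 were called in females only (58 of all 16316 genes), and 0 in males only, in either single-sex fit and without the 3 KO control females. In KO mice DESeq2 called 2 (17 of all 16316 genes) and the test without a filter 3 (85 of all 31774). For KO minus WT under AngII limma-voom called 3 (200 of all 16316 genes) and the test without a filter 2 (182 of all 31774). With a replicate block 2 were called in WT mice (24 of all 16316 genes), as Fn1 (adjusted p = 0.0622) and Tnc no longer passed. Same-numbered libraries did not deviate together (2 of 84 pairs had a correlation over 0.1, and 10 of 24 libraries correlated best with their own number), so the numbers were not taken to pair mice.

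All changes of sign were in values not called. For KO minus WT in controls Thbs1 was 0.026 with DESeq2, 0.026 with RLE factors, 0.038 with a filter of 50 counts in 3 libraries, 0.38 in females only and 0.39 in the female fit. Sparc was -0.011 with protein-coding library sizes, -0.033 unfiltered, -0.39 in females only and -0.37 in the female fit. In females only and in the female fit Sparcl1 was 0.012 and 0.034, and Spp1 -0.29 and -0.33. In males only, the male fit, without the 3 KO control females and with the covariate, Thbs2 was 0.21, 0.19, 0.19 and 0.21, and Tnc 0.34, 0.32, 0.32 and 0.0099. For KO minus WT under AngII Spp1 was -1.06 with limma-voom, -1.26 in females only, -1.23 in the female fit, -2.25 with the covariate and -0.52 with the replicate block, Sparcl1 was 0.011 in females only and 0.043 in the female fit, and Thbs2 was 0.086 with the covariate. For AngII in KO mice the values in males only, the male fit and without the 3 KO control females were -0.078, -0.057 and -0.062 for Sparcl1, -0.044, -0.022 and -0.026 for Thbs2, and -1.18, -1.175 and -1.19 for Spp1. For the interaction the same 3 gave 0.15, 0.19 and 0.18 for Thbs1, while Thbs2 was 0.044 in females only and 0.061 in the female fit and Sparcl1 0.0095 in the female fit. Leaving out 1 library, KO minus WT in controls spanned -0.33 to 0.0039 for Fn1, -0.13 to 0.092 for Sparc, -0.28 to 0.21 for Thbs1, -0.32 to 0.072 for Thbs2, -0.26 to 0.028 for Tnc and -0.31 to 4.24 for Spp1. For Spp1 it spanned -0.91 to 1.13 for KO minus WT under AngII, -0.62 to 2.98 for AngII in KO mice and -4.15 to 0.41 for the interaction. The cause of these changes was not tested.

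Without the 3 KO control females, the KO part of the AngII response and of the interaction, and KO minus WT in controls, rest on KO control males alone. Totals of 1523328 to 6352365 counts left Spp1 at 0 in 7 libraries, and the filter of 50 counts removed it.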
